A study of Oryza sativa with 35 samples.

Results

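Histone H4 transcripts were measured at the 9 loci of the count table listed as the rice H4 family, LOC_Os09g38020, LOC_Os02g45940, LOC_Os04g49420, LOC_Os01g61920, LOC_Os10g39410, LOC_Os03g02780, LOC_Os07g36500, LOC_Os09g26340 and LOC_Os05g38760. They were chosen by locus identifier and are 9 of the 55801 loci in the table. Assignment of these identifiers to H4 rests on that list, since none of the tables used here pairs them with a product. RNA came from inflorescence meristems of the rice (Oryza sativa) lines NIL-Gn1, with 8 libraries of tissue R1, 8 of R2, 1 of R4 and 2 of R5, and Koshihikari, with 5 of R1, 5 of R2, 3 of R4 and 3 of R5. Koshihikari is a japonica cultivar, and NIL-Gn1 is a line named for Gn1, a grain number locus. The labels do not define the codes R1 to R5 and do not give the parents of NIL-Gn1. All plants grew in chambers at 70% humidity, with short days (10 h, 27 °C) and long nights (14 h, 25 °C). Separate plants behind the libraries are not stated in the labels, and the p-values therefore speak only of variation among these libraries, part or all of which may be technical.

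Histone H4 is one of the core histones around which DNA is wrapped in the nucleosome. Replicated DNA is packed into new nucleosomes, and canonical histone genes are transcribed mostly in S phase, and histone transcripts are abundant in dividing tissue such as meristems. H4 is encoded by several gene copies whose proteins are nearly or fully identical. Plant histone mRNAs carry poly(A) tails, so a method that primes on poly(A), such as the CEL-Seq2 protocol used here, can capture them. Each count is a UMI, a molecular tag that marks 1 captured molecule near the 3′ end of a transcript, and levels between loci are therefore compared without a correction for transcript length.

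Library totals ranged from 76743 to 375071 UMIs with a median of 133163. OSH1, a homeobox gene active in rice shoot and inflorescence meristems, was detected in every library, at 97.7 CPM or more. CPM here means UMIs per 1000000 UMIs of the 7406 tested loci, scaled by trimmed mean of M values (TMM) factors. Koshihikari R2 replicate 1 stood at one end of the second principal component, at 76.5, and Koshihikari R2 replicates 4 and 5 at the other, at -50.7 and -62.6; the other 32 libraries lay between -14.8 and 22.1. Koshihikari R2 replicate 1 and NIL-Gn1 R5 replicate 1 had the lowest summed H4 levels of the 35 libraries. Comparisons of the H4 sum that use either library are also given without it.

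The H4 transcript was carried mostly by 5 of the 9 copies. The family had 31533 UMIs over all 35 libraries, and LOC_Os09g38020 had 7170 of them, 22.7% (95% exact binomial interval 22.3 to 23.2%). LOC_Os02g45940 followed with 5940 UMIs (18.8%) and LOC_Os04g49420 with 5181 (16.4%). LOC_Os01g61920 had 4869 UMIs (15.4%) and LOC_Os10g39410 had 3934 (12.5%). These 5 copies together held 85.9% of the H4 UMIs. LOC_Os03g02780 and LOC_Os07g36500 had 1788 and 1774 UMIs, 5.67% and 5.63%, and LOC_Os09g26340 had 876 (2.78%). LOC_Os05g38760 had 1 UMI in all, in NIL-Gn1 R2 replicate 9, and 0 in the other 34 libraries, where a count of 0 allows up to 3 counts, which equals 8.66 to 45.7 CPM depending on the library. It fell below the low-count filter and entered no test, whereas the other 8 copies passed and had a UMI in every library. Intervals of this kind cover counting error only.

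As levels, the copies averaged 1501 ± 232 CPM for LOC_Os09g38020, 1219.8 ± 197 for LOC_Os02g45940 and 1073 ± 182 for LOC_Os04g49420 (SD, n = 35 libraries). LOC_Os01g61920 averaged 1009 ± 142 CPM and LOC_Os10g39410 814 ± 136 CPM over the same libraries. The lower copies averaged 368 ± 95.4 CPM for LOC_Os03g02780, 366 ± 110 CPM for LOC_Os07g36500 and 182 ± 59.9 CPM for LOC_Os09g26340. By total UMIs the top copy ranked 30 among all loci, and the ranks of the next 4 copies were 43, 62, 72 and 109. LOC_Os03g02780 and LOC_Os07g36500 ranked 418 and 426, LOC_Os09g26340 ranked 1129 and LOC_Os05g38760 ranked 22138.

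Most steps in this order were seen in most libraries. LOC_Os09g38020 was above LOC_Os02g45940 in 31 of 35 libraries, and LOC_Os02g45940 was above LOC_Os04g49420 in 27. LOC_Os04g49420 and LOC_Os01g61920 lay close together, with a median ratio of 1.05 and the order holding in 24 libraries. LOC_Os01g61920 was above LOC_Os10g39410 in 33 libraries. The widest gap among the 8 detected neighbours lay below LOC_Os10g39410, which was above LOC_Os03g02780 in all 35 libraries by a median ratio of 2.21. LOC_Os03g02780 and LOC_Os07g36500 could not be put in order, since LOC_Os03g02780 was higher in only 16 of 35 libraries. LOC_Os07g36500 was above LOC_Os09g26340 in 34 libraries, by a median ratio of 2.10. How reads that match several copies were assigned is not given in the sources used here, so the division between near-identical copies is less certain than their sum.

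**Figure D1:**
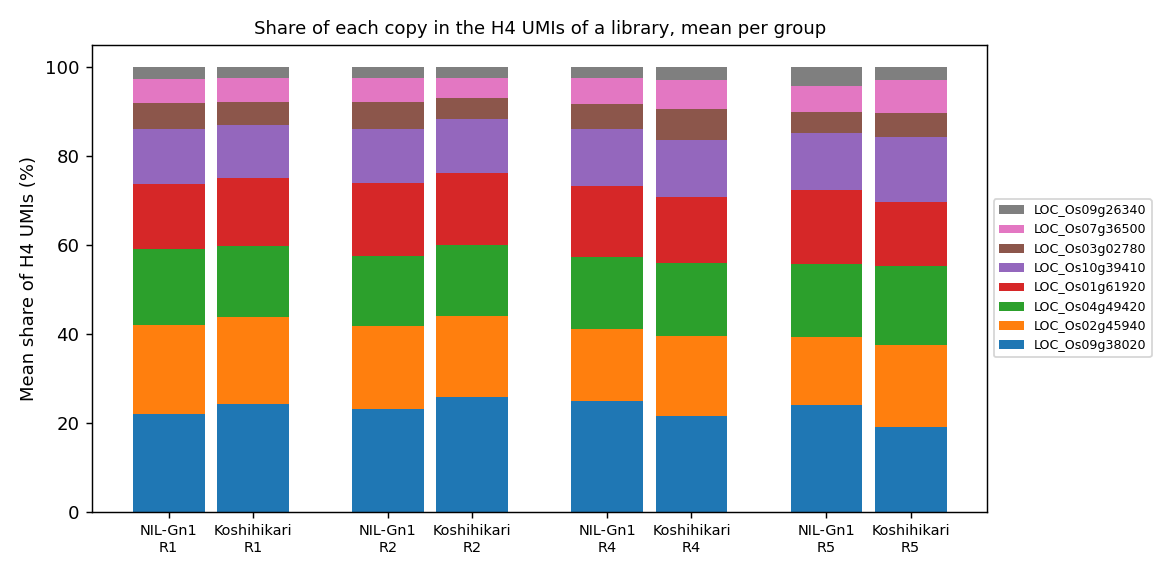
Share of each copy among all H4 UMIs of a library (percent), as means over the libraries of each of the 8 groups. LOC_Os09g38020 held the largest mean share in every group, between 19.1% in Koshihikari R5 and 25.9% in Koshihikari R2.

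The mixture of copies was similar across groups without being constant. LOC_Os09g38020 made up 22.0, 23.2, 24.8 and 23.9% of H4 UMIs in NIL-Gn1 at R1, R2, R4 and R5, against 24.2, 25.9, 21.5 and 19.1% in Koshihikari. LOC_Os07g36500 made up 5.39, 5.33, 5.81 and 5.67% in NIL-Gn1, against 5.30, 4.61, 6.59 and 7.35% in Koshihikari at the same codes. LOC_Os02g45940 made up 20.1, 18.6, 16.3 and 15.3% in NIL-Gn1, against 19.5, 18.1, 18.0 and 18.3% in Koshihikari. Copy shares varied between libraries by more than counting alone, with a chi-square of 2.04 per degree of freedom over 35 libraries and 8 copies (238 degrees of freedom). With UMIs pooled over the libraries of each of the 8 groups, the chi-square was 2.84 per degree of freedom (49 degrees of freedom). The pooled value also holds the variation between libraries. Both values are descriptions, and neither is a test between groups. The fitted biological coefficient of variation was 14.8 to 19.4% for the 8 tested copies, while the common value over all tested loci was 21.1%.

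Summed over the 9 loci, H4 made up 0.356% (95% exact interval 0.321 to 0.395%) to 0.696% (0.652 to 0.742%) of all UMIs of a library, the lowest in Koshihikari R2 replicate 1 and the highest in Koshihikari R5 replicate 5. The H4 sum in NIL-Gn1 was 6669 ± 472 CPM at R1 and 6231 ± 590.4 at R2 (SD, n = 8 each), 6598 in the single R4 library and 5357 ± 1476 at R5 (n = 2). In Koshihikari it was 6823 ± 408 CPM at R1 and 6348 ± 1038 at R2 (n = 5 each), and 7054 ± 603 at R4 and 7052 ± 1325 at R5 (n = 3 each). The 2 lines overlapped at each code. In these bulk samples, fewer dividing cells and less H4 RNA per cell cannot be told apart.

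**Figure D2:**
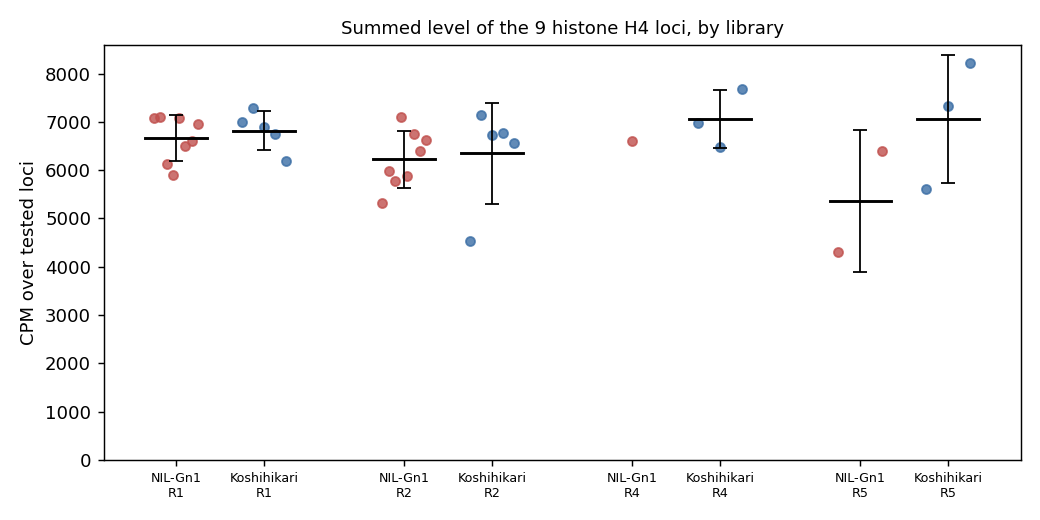
Summed H4 level (CPM over tested loci) of the 35 libraries by line and tissue code. Points are libraries, horizontal lines are group means and bars are SD; Koshihikari R2 replicate 1 at 4531 CPM and NIL-Gn1 R5 replicate 1 at 4314 CPM are the lowest points.

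The first question was whether H4 differed between NIL-Gn1 and Koshihikari at the same tissue code. At R1 the H4 sum ran from 5893 through a median of 6786 to 7111 CPM in the 8 NIL-Gn1 libraries, against 6989.6, 7284, 6906, 6753 and 6181 CPM in Koshihikari. The ratio of means was 0.977, and the groups overlapped almost fully. None of the 8 tested copies passed an adjusted p of 0.05 at R1, where 0.675% of the 7406 tested loci passed (edgeR quasi-likelihood F-test, Benjamini-Hochberg adjustment), and none had an unadjusted p under 0.05. The median log2 fold change of the copies was 0.02, against 0.01 over all tested loci. All 95% intervals of the copies' log2 fold changes lay between -0.41 and 0.53. The values of the 3 most abundant copies were -0.17 (SE 0.120, adjusted p = 0.653) for LOC_Os09g38020, 0.011 (SE 0.12, adjusted p = 0.992) for LOC_Os02g45940 and 0.06 (SE 0.126, adjusted p = 0.922) for LOC_Os04g49420. DESeq2 and limma-voom called no copy between the lines at R1, R2 and R4, in either line at R2 against R1, in Koshihikari at R4 against R2 and at R5 against R4, or in the interaction given further on.

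At R2 the lines were as close. The H4 sum ran from 5320.1 through a median of 6198 to 7095 CPM in the 8 NIL-Gn1 libraries, against 4531, 7151, 6732, 6764 and 6562 CPM in Koshihikari. The lowest value belonged to Koshihikari R2 replicate 1, and the ratio of means was 0.982. Without it the Koshihikari mean was 6813 CPM, the ratio 0.921 and the copies' median log2 fold change -0.10, with 6 of 8 copies negative and none called. Without Koshihikari R2 replicate 4 or 5 the ratio was 1.01 or 0.991. None of the 8 copies passed the threshold, with 0.500% of all tested loci past it, and none had an unadjusted p under 0.05. The median log2 fold change was 0.0037 for the copies and -0.0034 over all tested loci, and the copies' intervals lay between -0.45 and 0.65. LOC_Os09g38020 differed by -0.16 (SE 0.122, adjusted p = 0.709), LOC_Os02g45940 by -0.0021 (SE 0.123, adjusted p = 0.997) and LOC_Os04g49420 by -0.07 (SE 0.13, adjusted p = 0.913).

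At R4 the H4 sum was 6598 CPM in the only NIL-Gn1 library, against 6982, 6491 and 7689 CPM in Koshihikari, a ratio of 0.935. The fit assumes that the lone library varies like the other groups. None of the 8 copies passed the threshold, with 0.149% of all tested loci past it, and none had an unadjusted p under 0.05. The copies' median log2 fold change was -0.18, against -0.01 over all loci, and their intervals reached from -1.18 to 0.58. LOC_Os09g38020 differed by 0.11 (SE 0.238, adjusted p = 0.944), LOC_Os02g45940 by -0.24 (SE 0.241, adjusted p = 0.896) and LOC_Os04g49420 by -0.12 (SE 0.249, adjusted p = 0.944).

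At R5 the estimates were lower in NIL-Gn1 for 7 of the 8 copies, but none passed the threshold. The H4 sum was 4314 and 6401 CPM in NIL-Gn1, against 5611, 7328 and 8218 CPM in Koshihikari, a ratio of means of 0.760. The groups overlapped, since the second NIL-Gn1 library lay above the lowest Koshihikari library. The share of all tested loci past the threshold was 0.351%. Of the 8 copies, 5 had an unadjusted p under 0.05, as did 745 of the 7406 loci, and the smallest adjusted p was 0.151. The median log2 fold change of the copies was -0.60, against 0.02 over all tested loci, and the intervals reached from -1.48 to 0.78.

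LOC_Os02g45940 was the copy with that smallest adjusted p at R5. It stood at 716 and 899 CPM in NIL-Gn1 R5, against 1107, 1306 and 1425 CPM in Koshihikari R5, and the groups did not overlap. Its log2 fold change was -0.69 (SE 0.207, adjusted p = 0.151), and DESeq2 called it (adjusted p = 0.0491). LOC_Os04g49420 stood at 758 and 975.4 CPM in NIL-Gn1 R5, against 914, 1284 and 1642 CPM in Koshihikari R5, with overlap. Its log2 fold change was -0.59 (SE 0.212, adjusted p = 0.264). The most abundant copy, LOC_Os09g38020, stood at 984 and 1600.2 CPM in NIL-Gn1, against 1020.2, 1451 and 1572 CPM in Koshihikari. Its log2 fold change was -0.09 (SE 0.202, adjusted p = 0.934), nearer to 0 than those of both copies above. LOC_Os10g39410 stood at 525.0 and 853 CPM in NIL-Gn1, against 924, 1096 and 1034 CPM in Koshihikari, without overlap. It was not called (adjusted p = 0.265). A separation of 2 from 3 libraries is a weak criterion, and its share among all tested loci was not counted.

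The R5 estimates depended on single libraries of both lines. Without NIL-Gn1 R5 replicate 1 the copies' median log2 fold change was -0.29, and 5 of 8 copies were lower. That fit keeps 1 library of NIL-Gn1 R5, so only sizes are given, and LOC_Os02g45940 was at -0.54 in it. Without Koshihikari R5 replicate 5 the median was -0.39 and 2 copies had an unadjusted p under 0.05. The ratio of mean H4 sums was 0.888 without NIL-Gn1 R5 replicate 1. That library was also low in other genes of dividing cells: its H2B sum was 2267 CPM, its DNA replication sum 698 CPM and its mitosis sum 788 CPM, against group means of 4299, 946 and 1077 CPM in Koshihikari R5. Marker levels at R5 were not equal between the lines either. The 2 matched photosynthesis genes summed to 210 CPM on average in NIL-Gn1, against 599 CPM in Koshihikari. OSH15 averaged 162 against 79.2 CPM, DL 203 against 103, OSH1 222 against 263 and YAB5 477 against 712. None of the tested markers was called between the lines at R5. The part of all these values in the H4 difference was not tested.

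**Figure D3:**
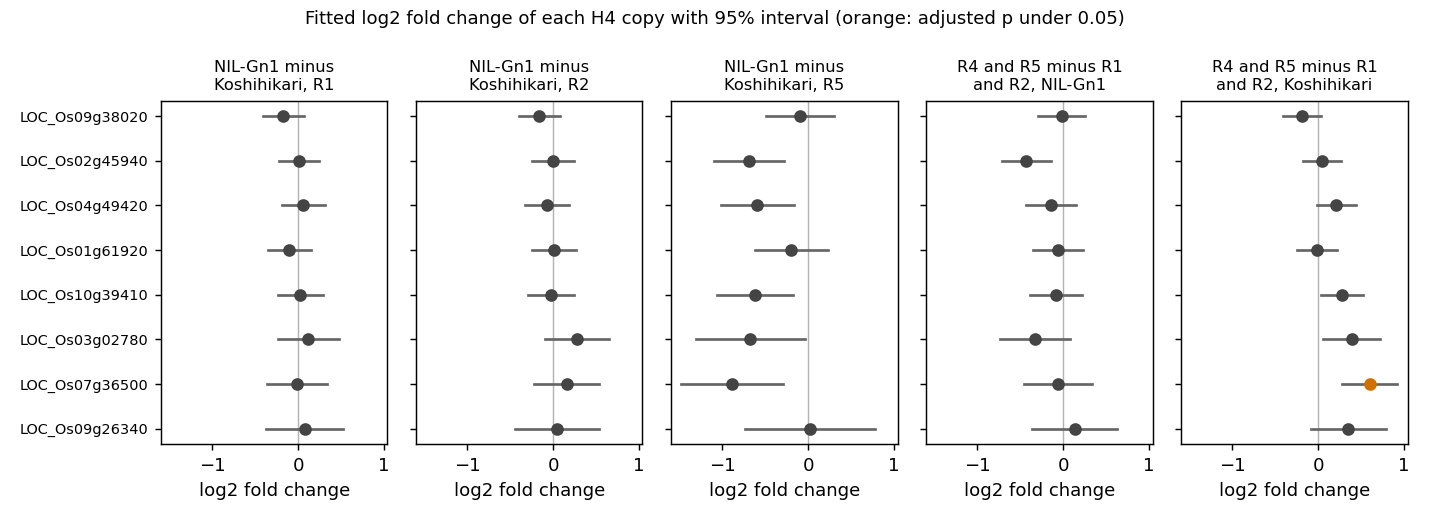
Fitted log2 fold change of each of the 8 tested copies (points) with its 95% interval (lines), for NIL-Gn1 minus Koshihikari at R1, R2 and R5, and for the mean of R4 and R5 minus the mean of R1 and R2 in each line. Orange marks the 1 value with an adjusted p under 0.05, LOC_Os07g36500 in Koshihikari at 0.60.

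The second question was how H4 changed across tissue codes within a line. Between the neighbouring codes R2 and R1 it changed little. The ratio of mean H4 sums, R2 over R1, was 0.934 in NIL-Gn1 and 0.930 in Koshihikari, and the ranges overlapped in both lines. Without Koshihikari R2 replicate 1 the Koshihikari ratio was 0.994. None of the 8 copies passed the threshold in NIL-Gn1, with 0.0810% of tested loci past it and 555 loci, none of them an H4 copy, at an unadjusted p under 0.05. LOC_Os09g38020 differed by -0.014 (SE 0.105, adjusted p = 0.993), LOC_Os02g45940 by -0.20 (SE 0.104, adjusted p = 0.664) and LOC_Os04g49420 by -0.21 (SE 0.109, adjusted p = 0.664). In Koshihikari none of the 8 copies passed, with 0% of tested loci past the threshold in edgeR and 439 loci, none an H4 copy, at an unadjusted p under 0.05. LOC_Os09g38020 differed by -0.02 (SE 0.136, adjusted p = 0.995), LOC_Os02g45940 by -0.19 (SE 0.137, adjusted p = 0.902) and LOC_Os04g49420 by -0.09 (SE 0.144, adjusted p = 0.980).

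Beyond R2 the codes compared differ between the lines, because NIL-Gn1 has a single R4 library. In Koshihikari, R4 over R2 gave a ratio of mean H4 sums of 1.11 with overlapping ranges, and 7 of the 8 copies had positive log2 fold changes with a median of 0.20, against -0.04 over all loci. Without Koshihikari R2 replicate 1 the ratio was 1.04, and 6 copies were positive with a median of 0.13. With all libraries, 2 copies had an unadjusted p under 0.05, as did 1481 of the 7406 loci. None passed the threshold, with 6.00% of tested loci past it. The nearest was LOC_Os07g36500, which passed without Koshihikari R2 replicate 2 (adjusted p = 0.0174) or without Koshihikari R4 replicate 3 (0.0382). LOC_Os09g38020 differed by -0.09 (SE 0.16, adjusted p = 0.798), LOC_Os02g45940 by 0.13 (SE 0.16, adjusted p = 0.714) and LOC_Os04g49420 by 0.18 (SE 0.167, adjusted p = 0.582). R5 over R4 in Koshihikari gave a ratio of 1.00, and none of the 8 copies passed, with 0% of tested loci past the threshold in edgeR and 536 loci, none an H4 copy, at an unadjusted p under 0.05. LOC_Os09g38020 differed by -0.17 (SE 0.178, adjusted p = 0.903), LOC_Os02g45940 by 0.013 (SE 0.177, adjusted p = 0.994) and LOC_Os04g49420 by 0.14 (SE 0.184, adjusted p = 0.928).

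In NIL-Gn1, R5 was set against R2. The ratio of mean H4 sums was 0.860 with overlapping ranges, and 7 of 8 copies had negative log2 fold changes with a median of -0.21, against -0.03 over all loci. Both rested on NIL-Gn1 R5 replicate 1: without it the ratio was 1.02, 4 of 8 copies were negative and the median was 0.05. With all libraries, none passed the threshold, with 2.52% of tested loci past it. An unadjusted p under 0.05 was found for 2 copies and for 894 of the 7406 loci. LOC_Os02g45940 was at 716 and 899 CPM at R5, against 984 to 1317 CPM in the 8 libraries of R2. Its log2 fold change was -0.54 (SE 0.182, adjusted p = 0.0996), and it passed in limma-voom (0.0477), with upper quartile normalization (0.0453) and without Koshihikari R2 replicate 1 (0.0472). Without NIL-Gn1 R5 replicate 1 it was -0.38 (adjusted p = 0.814). LOC_Os09g38020 differed by -0.20 (SE 0.176, adjusted p = 0.716) and LOC_Os04g49420 by -0.20 (SE 0.185, adjusted p = 0.739).

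With the mean of R4 and R5 set against the mean of R1 and R2, 1 copy rose in Koshihikari. LOC_Os07g36500 stood at 548, 297 and 564 CPM at R4 and 366, 465 and 756 CPM at R5 in Koshihikari, against 359.5, 327, 367, 380.1 and 366 CPM at R1 and 159, 496, 297, 265 and 281 CPM at R2. Of the 6 later libraries 4 lay above all 5 R1 libraries, and the groups overlapped. The log2 fold change was 0.60 (SE 0.163, adjusted p = 0.00478, 95% interval 0.28 to 0.92). It rested on 130 and 167 UMIs of this copy at R4 and R5, against 242 and 149 at R1 and R2. The call was lost without Koshihikari R5 replicate 5, the library with 756 CPM (log2 fold change 0.43, adjusted p = 0.0890).

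This was 1 call among 8 copies, beside 16.5% of all tested loci called in the same comparison and 8.87% called higher, so the share of copies called was near the background. The median log2 fold change of the 8 copies was 0.24, against -0.06 over all tested loci, and 6 were positive. LOC_Os09g38020 differed by -0.19 (SE 0.113, adjusted p = 0.244), LOC_Os02g45940 by 0.04 (SE 0.112, adjusted p = 0.854) and LOC_Os04g49420 by 0.21 (SE 0.116, adjusted p = 0.212). The count was 3 copies without Koshihikari R5 replicate 2, 2 without Koshihikari R2 replicate 3 and 0 without Koshihikari R5 replicate 5.

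Cell type markers moved in the same comparison. Among genes of photosynthetic tissue, the light-harvesting protein gene LHCB (LOC_Os01g41710) rose by a log2 fold change of 2.22 (SE 0.445, adjusted p = 0.000701) in Koshihikari. Its list, of which 2 of 4 genes could be matched, summed to 153 to 299 CPM at R4 and 289 to 830.2 CPM at R5, against 21.1 to 102 CPM at R1 and 35.4 to 239 CPM at R2. RBCS, for the small Rubisco subunit and the other matched gene, had 3 UMIs at R5, 2 at R1 and 0 at R2 and R4. OSH15, a meristem homeobox gene, fell by 0.94 on the log2 scale (adjusted p = 0.00979), whereas OSH1 was not called. Among the lateral organ genes YAB5 rose by 0.94 (adjusted p = 6.68e-07) and DL fell by 0.95 (adjusted p = 0.0486). DL, which specifies the carpel and leaf midrib in rice, kept its call in 24 of 43 alternative fits, while LHCB, OSH15 and YAB5 kept theirs in all 43. The part of these markers in the H4 result was not tested.

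**Figure D4:**
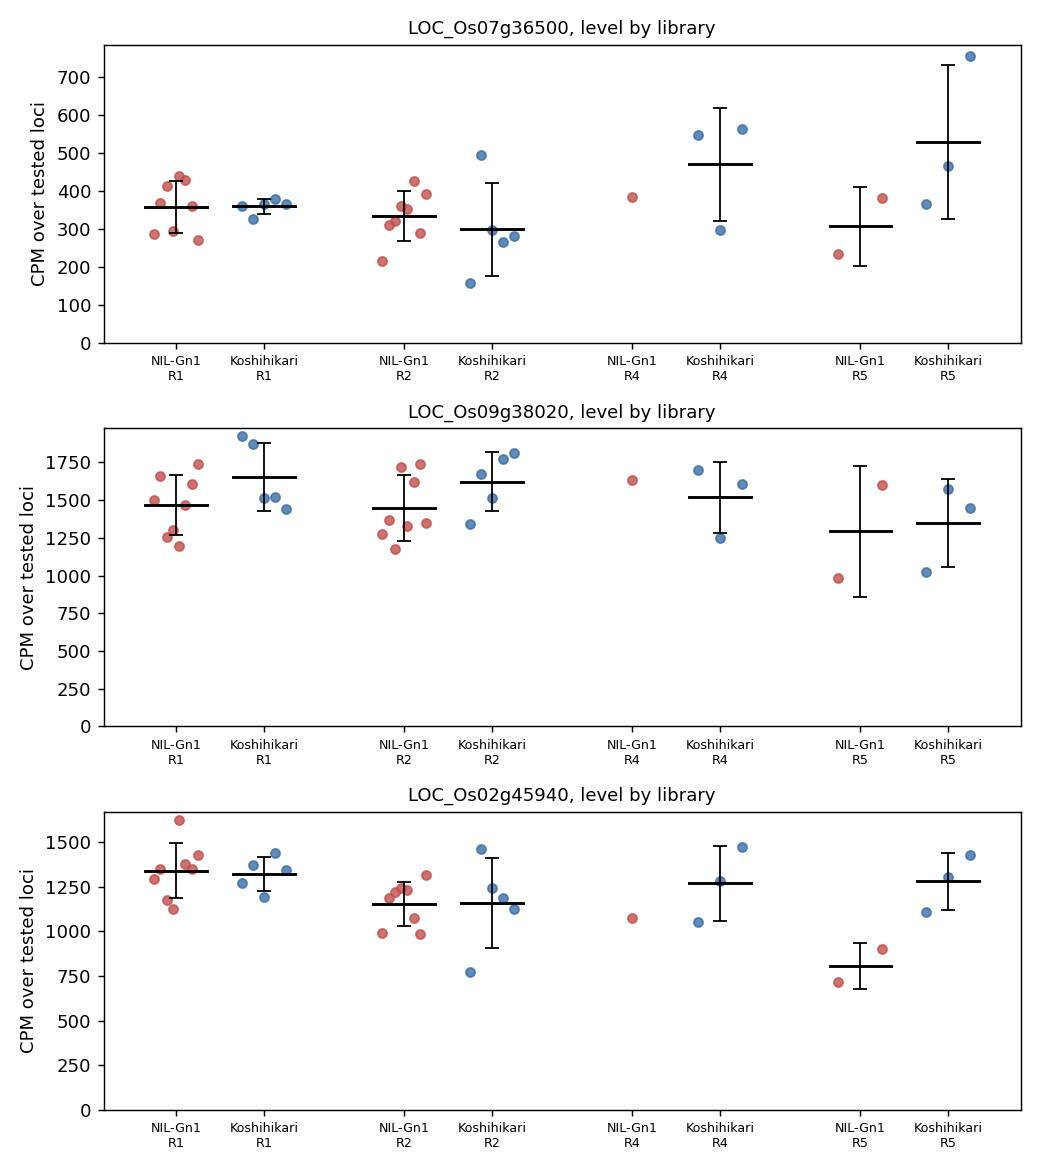
Level of LOC_Os07g36500, LOC_Os09g38020 and LOC_Os02g45940 (CPM over tested loci) in each library by line and tissue code. Points are libraries, horizontal lines are group means and bars are SD; LOC_Os02g45940 was 716 and 899 CPM in NIL-Gn1 R5, and LOC_Os07g36500 reached 756 CPM in Koshihikari R5.

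In NIL-Gn1 the same comparison took the single R4 library to vary like the other groups. It gave no call among the 8 copies, beside 3.93% of tested loci called. An unadjusted p under 0.05 was found for 1 copy and for 1127 of the 7406 loci. The copies' median log2 fold change was -0.07, against -0.05 over all loci. LOC_Os02g45940 stood at 1075 CPM in the R4 library and 716 and 899 CPM at R5, against 1124 to 1623 CPM at R1 and 984 to 1317 CPM at R2. Its log2 fold change was -0.43 (SE 0.144, adjusted p = 0.0739), and it passed in DESeq2 (0.0456), in limma-voom (0.0146), with a minimum mean of 10 counts (0.0479) and without Koshihikari R2 replicate 1 (0.0389). Without NIL-Gn1 R5 replicate 1 it was -0.34 (adjusted p = 0.429), and the median of the 8 copies was 0.07. LOC_Os09g38020 differed by -0.02 (SE 0.139, adjusted p = 0.970) and LOC_Os04g49420 by -0.14 (SE 0.146, adjusted p = 0.722). LOC_Os07g36500 stood at 383 CPM at R4 and 233 and 381 CPM at R5, against 270 to 440.4 CPM at R1 and 214 to 427 CPM at R2, with a log2 fold change of -0.06 (adjusted p = 0.926). YAB5 rose here too (0.62, adjusted p = 0.0213), but did not pass without NIL-Gn1 R5 replicate 2 (0.177).

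Whether the change across codes differed between the lines was tested as an interaction. None of the 8 copies passed, with 0.311% of tested loci past the threshold. Even so, 7 of 8 estimates were negative with a median of -0.35, against -0.01 over all loci. An unadjusted p under 0.05 was found for 3 copies and for 969 of the 7406 loci. Without NIL-Gn1 R5 replicate 1 the median was -0.24, with 5 of 8 negative and 1 unadjusted p under 0.05. LOC_Os07g36500, called in Koshihikari and not in NIL-Gn1, had an interaction of -0.66 (SE 0.258, adjusted p = 0.245), so a difference between the lines was not shown. The interaction was 0.17 (SE 0.178, adjusted p = 0.743) for LOC_Os09g38020, -0.47 (SE 0.181, adjusted p = 0.240) for LOC_Os02g45940 and -0.35 (SE 0.187, adjusted p = 0.415) for LOC_Os04g49420.

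H4 joins the other core histones in the nucleosome, and genes of H2B, of DNA replication and of mitosis were read beside it. The H2B sum over 8 loci was 4013, 3713, 3994 and 2734 CPM on average in NIL-Gn1 at R1, R2, R4 and R5, against 4332, 3610.3, 4825 and 4299 CPM in Koshihikari. At R5 it was 2267 and 3200.4 CPM in NIL-Gn1, against 3436, 4074 and 5386 CPM in Koshihikari, without overlap, while H4 overlapped. Here too a separation of 2 from 3 libraries is a weak criterion. The sum includes LOC_Os01g05610, at 137 to 183 CPM in NIL-Gn1 R5 and 387 to 660 CPM in Koshihikari R5. Whether the sums separate without that locus was not tested. The H2B gene LOC_Os01g05610 was lower in NIL-Gn1 at R1 (308 ± 40.0 CPM, n = 8, against 523 ± 68.3 in Koshihikari, n = 5; log2 fold change -0.73, SE 0.17, adjusted p = 0.0127). It was lower at R2 (287 ± 88.4 against 547 ± 197 CPM; -0.89, SE 0.175, adjusted p = 0.00152) and at R5 (160.1 ± 32.3 against 503 ± 141 CPM; -1.72, SE 0.334, adjusted p = 0.00141). Of 43 alternative fits the calls at R1 and R5 were each kept in 42, and the call at R2 in all 43. The R1 call was lost without Koshihikari R1 replicate 3 (log2 fold change -0.69, adjusted p = 0.0517). The R5 call was lost without NIL-Gn1 R5 replicate 1. That fit keeps 1 library of NIL-Gn1 R5, so only the size is given, -1.50. At R4, with 1 NIL-Gn1 library, the log2 fold change of LOC_Os01g05610 was -1.11, and it was not called. The other 6 tested H2B loci were not called between the lines at any code. The nearby LOC_Os01g05630 had log2 fold changes of the opposite sign at R1 (0.48, SE 0.176, adjusted p = 0.229) and R2 (0.56, SE 0.187, adjusted p = 0.170). H2B genes of the chromosome 1 cluster were matched to RefSeq as a group and not locus by locus, and reads shared between such copies could be divided differently.

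Across codes, 2 of 7 tested H2B loci rose in Koshihikari at R4 against R2, where 6.00% of all tested loci were called, LOC_Os01g05970 (log2 fold change 0.73, SE 0.21, adjusted p = 0.0214) and LOC_Os05g49860 (0.60, SE 0.175, adjusted p = 0.0232). Without Koshihikari R2 replicate 1 neither passed (0.55, adjusted p = 0.0864, and 0.47, adjusted p = 0.0935). In the fit of the compared groups only, the fold changes were 0.71 and 0.56 with adjusted p of 0.128 and 0.0580. LOC_Os01g05630 was called lower in NIL-Gn1 at R5 against R2 (-0.90, SE 0.274, adjusted p = 0.0495), but kept that call in only 26 of 43 alternative fits.

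**Figure D5:**
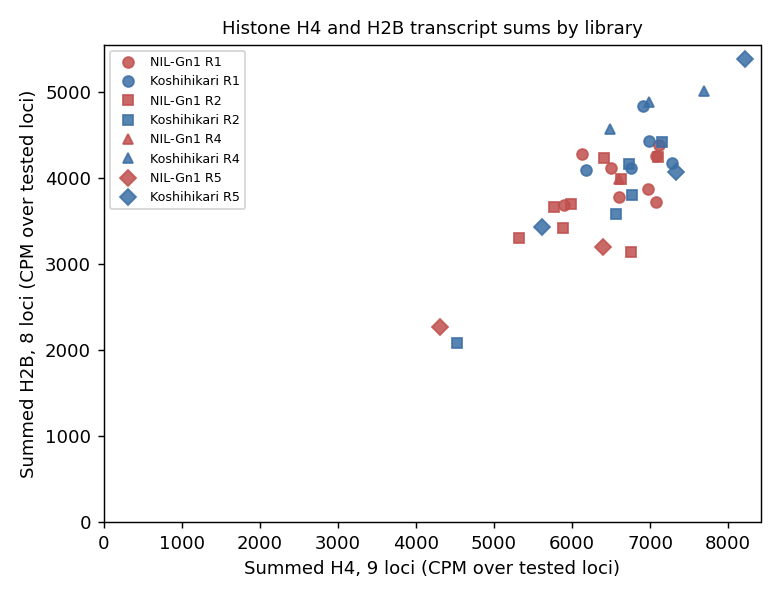
Summed H4 over 9 loci (x axis) against summed H2B over 8 loci (y axis), both in CPM over tested loci, 1 point per library with colour for line and shape for tissue code. Koshihikari R2 replicate 1 (4531 and 2088 CPM) and NIL-Gn1 R5 replicate 1 (4314 and 2267 CPM) lie lowest on both axes.

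The DNA replication genes, such as the MCM helicase subunits and PCNA, gave 1 call among 8 tested loci in all 12 comparisons, in one where 3.93% of all tested loci were called. Within NIL-Gn1, MCM2, a subunit of the replicative helicase, was lower at R4 and R5 together than at R1 and R2 together (log2 fold change -1.27, SE 0.355, adjusted p = 0.0187). The estimate shrank to -0.66 without NIL-Gn1 R5 replicate 1. With replicate number as a block it was not called (-1.02, adjusted p = 0.237). Mean MCM2 was 120, 126, 51.4 and 69.9 CPM in NIL-Gn1 at R1, R2, R4 and R5, against 132, 102, 104 and 68.5 CPM in Koshihikari. The replication genes summed to 1171, 1088, 968 and 814 CPM in NIL-Gn1 at R1, R2, R4 and R5, against 1088, 953, 1001 and 946 CPM in Koshihikari. None of the 6 mitosis genes was called in any comparison. Their sum was 1175, 1175, 1055 and 942 CPM in NIL-Gn1, against 1227, 959, 1164 and 1077 CPM in Koshihikari. Koshihikari R2 replicate 1 was the lowest library in its group for H4 (4531 CPM), H2B (2088 CPM), replication (586 CPM) and mitosis (427 CPM) alike, and had the lowest sum of OSH1 and OSH15 of all libraries (183 CPM).

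The 8 tested copies varied together between libraries of a group. After the group means were taken out, all 28 pairs of copies had a positive correlation of log2 levels over the 35 libraries, between 0.21 and 0.72 with a median of 0.48. The closest pair was LOC_Os07g36500 with LOC_Os09g26340, and the loosest LOC_Os01g61920 with LOC_Os04g49420. The points share library and depth, and the values are a description. Pairs of loci outside the family were not computed beside them, so the values cannot be called particular to H4. The pairs were not computed without single libraries either. The lone NIL-Gn1 R4 library equals its own group mean and adds nothing to them. Outside the family, the 5 loci closest to the H4 sum by the same measure were LOC_Os03g17100 (Pearson r 0.776), the H2B gene LOC_Os01g05970 (0.775), LOC_Os01g64640 (0.765), LOC_Os06g06510 (0.758) and MCM7, LOC_Os12g37400 (0.750). Spearman's rho was 0.562, 0.633, 0.717, 0.537 and 0.695 in the same order. LOC_Os03g17100 had been listed as an H2A gene, and LOC_Os01g64640 and LOC_Os06g06510 as H3 genes, but none of them could be matched to RefSeq. Without the 2 libraries whose H4 deviation from their own group mean lay farthest from the median deviation, Koshihikari R2 replicate 1 and Koshihikari R5 replicate 2, r was 0.623, 0.650, 0.633, 0.599 and 0.753, so only MCM7 kept its value.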

How the data were processed

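RNA from rice inflorescence meristems was measured in 35 libraries by CEL-Seq2, from 100 pg of RNA with 11 to 15 PCR cycles, per the labels' protocols. The table as the authors deposited it gives raw UMI counts at 55801 loci, of which 24425 had a UMI. Bowtie2 and Subread 2.1 are named per the submitters' processing notes; their roles, the build, the annotation and the handling of multiply matching reads are not given in the sources used here. All columns mapped to a sample, and groups were formed from line and tissue code.

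Counts were fitted over all 35 libraries with 1 coefficient per group in edgeR 4.0.16 (R 4.3.3; TMM, filterByExpr, robust quasi-likelihood F-test). The filter kept 7406 loci with 86.7% of UMIs. Adjusted p-values are Benjamini-Hochberg over these loci within each comparison, called under 0.05, and SE is the size of the log2 fold change divided by the square root of F. The H4 sum was described and not tested. The fit was tried on simulated counts for the comparison of the lines at R1 only, and not for the other comparisons. Alternatives used limma 3.58.1 (voom), DESeq2 1.42.0, other normalizations and filters, a replicate block, the compared groups only, and each library left out.

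H4 members and gene lists were chosen with earlier results of these data known. Fold changes are printed for called copies and the 3 with the largest mean level; of each list, called members are named. Listed genes were matched to RefSeq (assembly ASM3414082v1) by name, chromosome and relative position: 9 of 9 H2B, 9 of 15 replication, 6 of 6 mitosis, 2 of 2 meristem, 2 of 4 photosynthesis and 3 of 3 lateral organ genes matched. Of H3 and H2A genes, 1 of 10 and 0 of 13 matched, and both lists were left out; so was 1 H2B locus not in the table. No 2 libraries of a group agreed within counting noise (lowest chi-square per degree of freedom 1.37 in 83 pairs).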

Additional observations from a re-analysis of the deposited data

Results flagged for a closer look

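Of 36 sets of library values checked (the 8 tested copies and the H4 sum in each of the 4 groups with 5 or 8 libraries), 3 held a library far from its group; chance alone gives about 1 in 20. The H4 sum was 4531 CPM in Koshihikari R2 replicate 1, below the other 4 libraries at 6562 to 7151 CPM. LOC_Os04g49420 was 1392 CPM in NIL-Gn1 R1 replicate 1, above the other libraries at 1019 to 1174 CPM. The same copy was 937 CPM in Koshihikari R1 replicate 5, below the others at 1121 to 1137 CPM.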

How the results depend on the processing

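Of 1582 alternative fits of the 37 printed fold changes of single copies, 1510 kept direction and side of the threshold; 62 changed sign, none of them larger than 0.22 or with an adjusted p under 0.807. Counts of called copies went to 1, each time LOC_Os02g45940, in DESeq2 for the lines at R5, with upper quartile normalization and in limma-voom for R5 against R2 in NIL-Gn1, and with a minimum mean of 10 counts, in DESeq2 and in limma-voom for R4 and R5 against R1 and R2 in NIL-Gn1. With each library left out, counts ran from 0 to 1 for R4 against R2 in Koshihikari, 0 to 1 for R5 against R2 in NIL-Gn1, 0 to 3 and 0 to 1 for R4 and R5 against R1 and R2 in Koshihikari and in NIL-Gn1, and were 0 in the other comparisons. Scaled to the raw library total, the H4 sum was 5908 CPM (NIL-Gn1 R1), 5973 (Koshihikari R1), 5558 (NIL-Gn1 R2), 5746 (NIL-Gn1 R4) and 5936 (Koshihikari R4), by construction lower because the total holds untested loci. Without LOC_Os09g38020 it was 5202, 4783 and 4962 CPM in NIL-Gn1 at R1, R2 and R4, and 5168, 4724, 5536 and 5705 CPM in Koshihikari at R1, R2, R4 and R5. These last values are lower by construction, since they leave out that copy. The cause of the changes in called copies was not tested.

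Sign changes under other settings were LOC_Os02g45940 between the lines at R1 (-0.037, limma-voom) and R2 (0.089, no filter); LOC_Os04g49420 between the lines at R2 and R4 (0.026 and 0.071, no filter); LOC_Os09g38020 at R2 against R1 in limma-voom (0.021 in NIL-Gn1, 0.0098 in Koshihikari); and LOC_Os02g45940 at R4 and R5 together in Koshihikari (-0.0078, upper quartile). With each library left out, LOC_Os02g45940 ran from -0.030 to 0.045 and -0.11 to 0.11 between the lines at R1 and R2, and from -0.11 to 0.13 and -0.017 to 0.12 in Koshihikari for R5 against R4 and for R4 and R5 together. LOC_Os04g49420 ran from -0.0050 to 0.086 and -0.14 to 0.042 between the lines at R1 and R2, and from -0.087 to 0.35 for R5 against R4 in Koshihikari. LOC_Os09g38020 ran from -0.012 to 0.19 and -0.45 to 0.22 between the lines at R4 and R5, -0.051 to 0.035 and -0.083 to 0.032 for R2 against R1 in NIL-Gn1 and Koshihikari, -0.17 to 0.030 and -0.30 to 0.0065 for R4 against R2 and R5 against R4 in Koshihikari, -0.55 to 0.13 for R5 against R2 and -0.19 to 0.15 for R4 and R5 together in NIL-Gn1, and -0.0055 to 0.32 in the interaction. Without its only library, comparisons that use NIL-Gn1 R4 were not possible.

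Same-numbered libraries did not vary together (1 of 64 pairs had a correlation over 0.1, range -0.06 to 0.10). With the replicate block the counts of called copies were the same, 1 for R4 and R5 together in Koshihikari (LOC_Os07g36500, 0.52, adjusted p = 0.0171) and 0 elsewhere. LOC_Os02g45940 had -0.54 (adjusted p = 0.491) between the lines at R5 with the block, and in NIL-Gn1 -0.40 (0.429) for R5 against R2 and -0.25 (0.565) for R4 and R5 together; MCM2 had -1.02 (0.237) there. The block turned the sign of LOC_Os04g49420 between the lines at R4 (0.026), LOC_Os02g45940 at R5 against R4 in Koshihikari (-0.014) and LOC_Os09g38020 at R4 and R5 together in NIL-Gn1 (0.076).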
